A study of Mus musculus with 6 samples.

Results

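The IL-6 family signalling and acute-phase genes described here are 10 genes, *Il6*, *Lif*, *Il6ra*, *Il6st*, *Lifr*, *Osmr*, *Stat3*, *Socs3*, *Saa3* and *Lcn2*. They were picked by gene symbol from the 23282 rows of each deposited count table, and 9 of them passed the filter on low counts. The list was drawn up with the differences between the genotypes in these same libraries already known. The genotype values of the 10 genes are therefore a description, and the adjusted p printed for a gene says where it stood in the fit over all genes and does not test the list. The RNA came from liver sinusoidal endothelial cells (LSECs), the fenestrated cells that line the liver sinusoids, with 3 libraries per genotype, *Txnip*-/- and WT. Both genotypes were on the C57BL/6J background, and *Txnip* was missing from the whole animal, so other liver cells lacked it too. Per the study's methods, LSECs were isolated by collagenase perfusion, a density gradient and anti-CD146 magnetic beads and then grown in endothelial growth medium. The age and sex of the mice, any time in culture and whether each library was 1 mouse are not given in the sources used here. P-values thus measure only the spread between these libraries. No LPS or ethanol treatment is named for them.

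Most IL-6 family cytokines bind a ligand-specific receptor chain and then recruit gp130, the shared signalling chain that *Il6st* encodes, alone or paired with the chains of *Lifr* or *Osmr*. Janus kinases bound to these chains phosphorylate STAT3, which enters the nucleus and turns on target genes, among them *Socs3*, whose product shuts the receptor off. In the liver this pathway drives the acute-phase response, in which hepatocytes secrete plasma proteins during inflammation. *Saa3* encodes a serum amyloid A made mainly outside hepatocytes, by macrophages among other cells, and *Lcn2* encodes lipocalin 2, which binds bacterial siderophores and is made by neutrophils, epithelia and stressed hepatocytes.

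The promoters of *Saa3* and *Lcn2* are shown because these genes had the largest log2 fold changes of the 9 tested, in opposite directions, and that of *Socs3* because it is the feedback gene of STAT3. Each is the RefSeq window from 250 bases before to 50 bases after the start on GRCm38.p6, read 5′ to 3′ on the gene's own strand, here the minus strand for all 3 genes. Match positions count from this RefSeq start. The gene positions given below come from another annotation, GENCODE, and the *Lcn2* and *Socs3* windows lie wholly inside those gene spans. Capitals mark matches to a STAT motif (TTCNNNGAA) or a C/EBP motif (TTGCNNAA), searched on both strands.
Saa3, chr7:46715627-46715926: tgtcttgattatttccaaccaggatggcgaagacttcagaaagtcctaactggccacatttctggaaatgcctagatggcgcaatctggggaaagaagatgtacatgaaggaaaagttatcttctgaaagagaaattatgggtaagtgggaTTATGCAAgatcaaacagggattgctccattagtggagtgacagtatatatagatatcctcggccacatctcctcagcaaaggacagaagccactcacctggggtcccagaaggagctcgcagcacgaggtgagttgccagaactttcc
Lcn2, chr2:32387690-32387989: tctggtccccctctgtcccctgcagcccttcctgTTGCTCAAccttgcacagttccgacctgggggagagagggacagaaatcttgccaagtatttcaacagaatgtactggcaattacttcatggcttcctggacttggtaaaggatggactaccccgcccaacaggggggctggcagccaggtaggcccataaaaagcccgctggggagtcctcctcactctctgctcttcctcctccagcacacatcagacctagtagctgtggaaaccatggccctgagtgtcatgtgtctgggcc
Socs3, chr11:117969317-117969616: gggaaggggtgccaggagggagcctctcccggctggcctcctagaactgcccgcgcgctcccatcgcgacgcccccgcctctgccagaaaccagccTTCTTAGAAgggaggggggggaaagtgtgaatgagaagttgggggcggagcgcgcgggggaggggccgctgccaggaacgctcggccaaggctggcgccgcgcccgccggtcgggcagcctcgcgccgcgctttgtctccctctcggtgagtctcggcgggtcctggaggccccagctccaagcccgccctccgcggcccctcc
The *Saa3* and *Lcn2* windows each held 1 C/EBP match, at positions -99 and -216 from the start, and no STAT match. The *Socs3* window held 1 STAT match, at position -154. Over all 32851 promoter windows of this length, 8.3% held the STAT motif and 10.8% the C/EBP motif. The NF-kB motif searched (GGG, any 2 bases, then TTTCC, on both strands) was in 1.63% of them and in none of these 3. Among the other listed genes only *Il6* held a match, 1 to the C/EBP and 1 to the NF-kB motif, over 11 windows for the 10 genes. A match is a run of letters and no measurement of binding.

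The libraries held between 9147764 and 10193952 counts, and the 10 genes together took 3527 to 4741 of them. Levels are CPM, the counts divided by library totals that were scaled with TMM factors. The floor of detection was set at 3 counts, or 0.286 to 0.335 CPM. *Txnip*, the deleted gene, ranged from 191 to 269 counts under the *Txnip*-/- label and from 1901 to 2019 counts under the WT label, so each library matched its label. The first and second WT replicates differed from the remaining 4 libraries. The ribosomal RNA row *Rn45s* took 10.03% and 9.68% of their counts and 16.8% to 18.6% elsewhere. The chi-square distance was 3.93 per degree of freedom between them and 37.0 and 40.2 to WT replicate 3, which lay at 13.3 to 17.1 from the *Txnip*-/- libraries. Results that turn on WT replicate 3 are therefore given without it, and with a model term for WT replicates 1 and 2. Endothelial markers were high and those of lymphocytes and neutrophils at or near 0, as the label LSEC asks, but macrophage markers were present in both genotypes and are given with *Saa3* below.

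Of the 9 genes above the filter, *Saa3* alone passed an adjusted p of 0.05 with a fold change above 1.3 in edgeR's quasi-likelihood test over 11583 genes, and it fell. By this rule 1.44% of all tested genes were called, 0.509% as higher and 0.932% as lower in *Txnip*-/- LSECs (59 of 167 calls higher). The share of higher calls moved to 35 of 180 with no normalization factors and to 96 of 194 once WT replicates 1 and 2 had their own term. The 3 *Txnip*-/- libraries did not overlap the 3 WT libraries for 3 of the 9 genes, *Lcn2* (higher) and *Saa3* and *Osmr* (lower), against 17.4% of all tested genes. The median log2 fold change of the 9 was 0.087, and -2.8e-05 over all tested genes. The ligands had few counts, and the receptor chains, *Stat3* and *Socs3* did not pass the test. Since the list was picked with this contrast known, nothing is read from these counts.

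**Figure D1:**
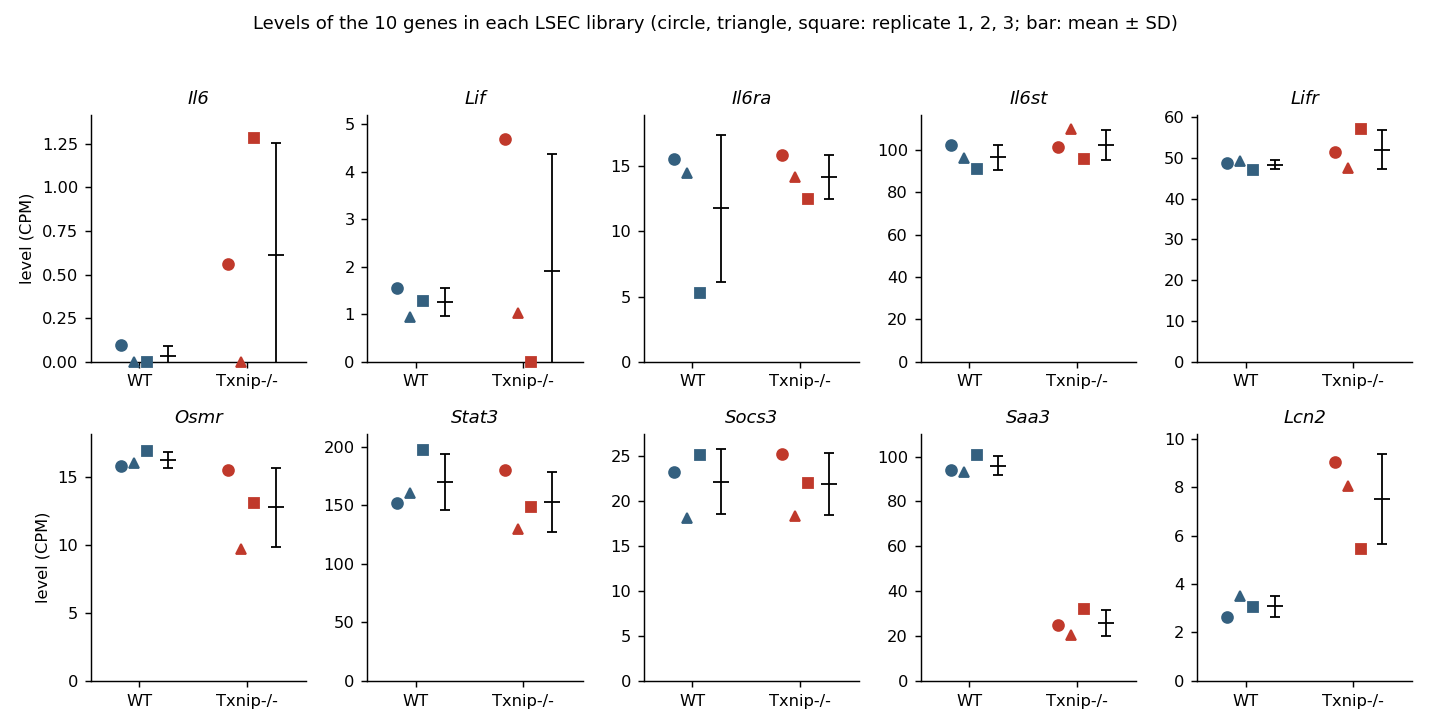
Level in CPM of each of the 10 genes (vertical axis from 0) in the 3 WT and 3 *Txnip*-/- libraries, one symbol per library, with the mean ± SD beside each group (bars are cut at 0). *Saa3* lies between 20.6 and 32.2 CPM in *Txnip*-/- libraries and between 93.0 and 101 CPM in WT libraries, *Lcn2* is higher in all 3 *Txnip*-/- libraries, and *Il6ra* has 1 low WT library at 5.29 CPM.

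*Il6* (chromosome 5 of GRCm38, 30013114 to 30019981, plus strand) encodes the founding cytokine of the family. It had 5, 0 and 12 counts in *Txnip*-/- replicates 1, 2 and 3 and 1, 0 and 0 counts in WT replicates 1, 2 and 3. The *Txnip*-/- counts came from 2 of the 3 libraries, and the groups shared a value of 0. Summed over libraries, 17 counts stood against 1, a ratio of 17.2 after scaling to library size (exact 95% interval 2.70 to 721, counting error only). With no filter on low counts, the spread between libraries left *Il6* far from the threshold (log2 fold change 3.77, adjusted p = 0.600, edgeR), and a fold of a gene this low depends on the prior count. *Lif* (chromosome 11, 4257557 to 4272514), which encodes leukemia inhibitory factor, had 42, 10 and 0 counts in *Txnip*-/- replicates 1, 2 and 3 and 16, 10 and 12 counts in the WT replicates. *Txnip*-/- LSECs thus held both its highest and its lowest library, on both sides of the WT range. The log2 fold change was 0.58 with a 95% interval of -1.48 to 2.65 (adjusted p = 0.896, edgeR), and it was -1.27 without *Txnip*-/- replicate 1.

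*Il6st* was the most abundant receptor chain, and the gp130 that it encodes is shared by the receptors for IL-6, LIF and oncostatin M. Its levels were 101, 110.0 and 95.9 CPM in *Txnip*-/- replicates 1, 2 and 3 and 102, 96.0 and 90.9 CPM in WT replicates 1, 2 and 3. The genotypes overlapped, and the log2 fold change of 0.087 (SE 0.10, adjusted p = 0.840, edgeR) had a 95% interval of -0.13 to 0.31, a ratio of 0.913 to 1.24. *Lifr*, the LIF-binding chain that pairs with gp130, stood at 51.4, 47.6 and 57.2 CPM with *Txnip* deleted and at 48.8, 49.2 and 47.1 CPM in WT. It also overlapped between the genotypes (log2 fold change 0.11, 95% interval -0.16 to 0.37, adjusted p = 0.840, edgeR). *Osmr*, the oncostatin M chain, had 15.5, 9.68 and 13.0 CPM with *Txnip* deleted and 15.8, 16.0 and 16.9 CPM in WT. Every *Txnip*-/- library was below every WT library, the nearest pair being 15.5 and 15.8 CPM. The log2 fold change of -0.35 (SE 0.23, adjusted p = 0.609, edgeR) was within the spread between libraries, with an interval of -0.83 to 0.13.

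*Il6ra* encodes the chain that binds IL-6 itself, on which a cell depends for classic IL-6 signalling. Its levels were 15.9, 14.2 and 12.5 CPM in *Txnip*-/- replicates 1, 2 and 3, and 15.6, 14.5 and 5.29 CPM in WT replicates 1, 2 and 3. WT replicate 3 was thus the only library that stood apart, at 50 counts against 117 to 160 in the other 5. The log2 fold change was 0.26 (SE 0.31, adjusted p = 0.840, edgeR) with an interval of -0.40 to 0.92, and *Il6ra* did not pass the test. This value rests on WT replicate 3. Without that library it was -0.085 (adjusted p = 0.929, edgeR). When WT replicates 1 and 2 had a term of their own, so that WT replicate 3 alone was the baseline and was assumed to vary like the others, it was 1.42 (adjusted p = 0.0487, edgeR), past the threshold.

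*Stat3* (chromosome 11, 100885098 to 100939540, minus strand) was the most abundant of the 10 genes. It had 180.0, 130.1 and 148 CPM with *Txnip* deleted and 152, 160.3 and 197 CPM in WT, so its highest *Txnip*-/- library lay above WT replicates 1 and 2. The log2 fold change was -0.15 (SE 0.12, 95% interval -0.41 to 0.11, adjusted p = 0.710, edgeR). *Stat3* also turned on WT replicate 3, at a log2 fold change of -0.032 without that library and -0.37 with the term for WT replicates 1 and 2. Its last 500 bases overlap an exon of *Stat5a* on the opposite strand, and with the use of strand not stated its counts may hold reads of that gene. *Socs3* (chromosome 11, 117966079 to 117970047), the inhibitor whose promoter with the STAT match is printed above, had 25.2, 18.3 and 22.0 CPM with *Txnip* deleted. It had 23.3, 18.1 and 25.1 CPM in WT. The ranges lay on top of each other, and the log2 fold change was -0.018 (SE 0.19, adjusted p = 0.984, edgeR). Its interval of -0.43 to 0.39 is a ratio of 0.744 to 1.31, and larger changes lay outside it. mRNA levels say nothing of STAT3 phosphorylation, which was not measured in these libraries.

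*Saa3* (chromosome 7, 46711998 to 46715700, minus strand) had 24.8, 20.6 and 32.2 CPM in *Txnip*-/- replicates 1, 2 and 3 and 94.1, 93.0 and 101 CPM in WT replicates 1, 2 and 3. All 3 *Txnip*-/- libraries lay far below all WT libraries, and WT replicate 3 did not depart from the other WT libraries here. *Saa3* was 3.71-fold lower in *Txnip*-/- LSECs (log2 fold change -1.89, SE 0.15, 95% interval -2.21 to -1.58, adjusted p = 8.99e-07, edgeR), at rank 5 by p among all tested genes. The call held in all 16 alternative fits, between -2.09 and -1.75. Reads with several alignments were counted, but the related *Saa1* and *Saa2* had at most 8 counts in any library.

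The macrophage markers fell as well. Of 12 Kupffer cell and macrophage markers, 11 passed the filter, 10 were called and all 10 were lower in *Txnip*-/- LSECs, with a median log2 fold change of -1.48 over the 11. The summed level of the 12 was 301 to 333 CPM in *Txnip*-/- libraries and 725 to 757 CPM in WT libraries, 2.36-fold lower on average in *Txnip*-/- LSECs. *Marco*, a scavenger receptor and the most abundant of them, fell by 1.07 on the log2 scale (adjusted p = 5.23e-06, edgeR), *Cd163* fell by 2.07 (adjusted p = 5.48e-07) and *Csf1r*, the CSF1 receptor, fell by 1.44 (adjusted p = 0.000262). *Vsig4*, *Adgre1*, *Cd5l*, *C1qa*, *C1qb*, *C1qc* and *Cd68* were also called. The call of *Adgre1* was the least firm (adjusted p = 0.0495, edgeR) and was lost without *Txnip*-/- replicate 1 or 2 or WT replicate 1 or 2, at an adjusted p of 0.152 to 0.210, and at 0.123 with the term for WT replicates 1 and 2. *Clec4f* did not pass (adjusted p = 0.0917), and *Timd4* was below the filter. Both were named after their values were seen. In bulk RNA, fewer cells of a type and less RNA per cell cannot be told apart. Per 100 counts of the 12 markers, *Saa3* had 7.99, 6.85 and 9.65 counts in *Txnip*-/- libraries and 12.4, 12.8 and 13.5 counts in WT libraries. The ratio was thus lower in each *Txnip*-/- library, at 0.631 of the WT mean. It depends on which markers carry the sum. The log2 fold changes of the 11 tested markers ran from -2.07 to -0.75, and the -1.89 of *Saa3* lay within that range. The part of these markers in the *Saa3* difference was not tested.

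**Figure D2:**
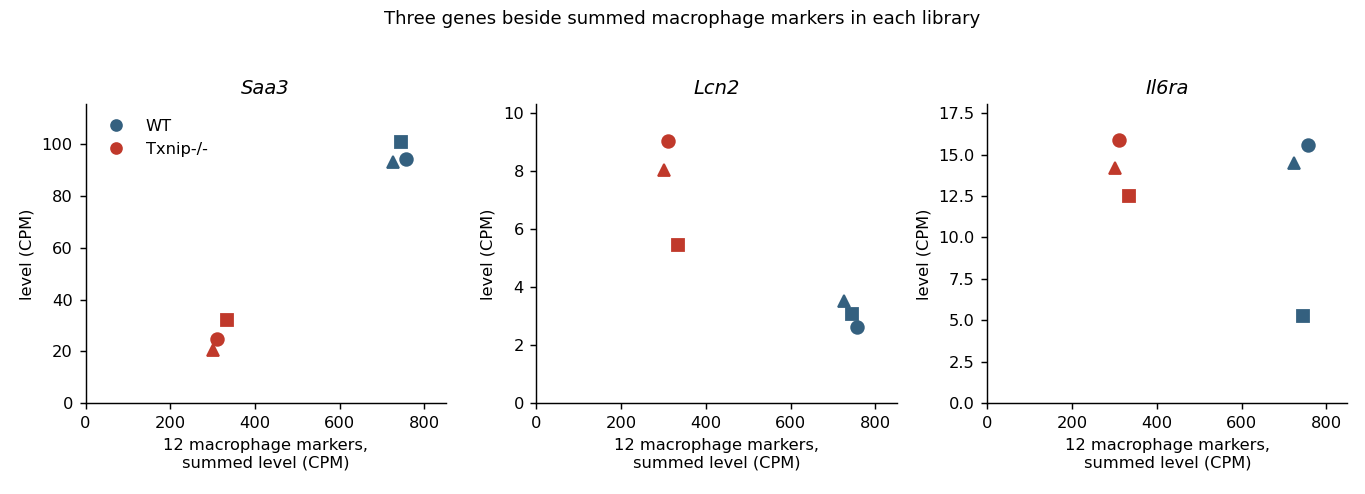
Level in CPM of *Saa3*, *Lcn2* and *Il6ra* (vertical axes) against the summed CPM of 12 macrophage markers (horizontal axis) in each library, blue for WT and red for *Txnip*-/-, with circle, triangle and square for replicates 1, 2 and 3. The *Txnip*-/- libraries sit at 301 to 333 CPM of the markers and low in *Saa3*, but high in *Lcn2*, and *Il6ra* spans the same levels on both sides apart from WT replicate 3.

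*Lcn2* (chromosome 2, 32384633 to 32388252, minus strand) had 9.04, 8.05 and 5.45 CPM in *Txnip*-/- replicates 1, 2 and 3 and 2.63, 3.52 and 3.07 CPM in WT replicates 1, 2 and 3. All 3 *Txnip*-/- libraries lay above the WT libraries, the opposite direction to *Saa3* and to the macrophage markers. These levels rest on 51 to 81 counts and on 27 to 37 counts. The ratio of the fitted levels was 2.44 (95% interval 1.39 to 4.27, log2 fold change 1.29, SE 0.38), but *Lcn2* did not pass the adjusted threshold (unadjusted p = 0.00373, adjusted p = 0.131, edgeR). In the 16 alternative fits the log2 fold change stayed between 1.13 and 1.47 and the adjusted p between 0.0818 and 0.413. Neutrophils are one source of this RNA, beside epithelia and stressed hepatocytes. Of the 5 hepatocyte markers above the filter, 4 had higher and 1 had lower fitted levels with *Txnip* deleted. Their median log2 fold change was 0.63, and 0 were called. Of the 8 neutrophil markers 7 were in the tables, with at most 13 counts in any library, and *Mpo*, *Elane* and *Retnlg* were at 0 in all 6. On TMM-scaled levels the sum of the 7 was nonetheless higher in each *Txnip*-/- library, the direction of *Lcn2*, at 1.45 to 2.34 CPM against 0.423 to 1.36 CPM in WT. The nearest pair was *Txnip*-/- replicate 1 at 1.45 CPM and WT replicate 1 at 1.36 CPM. Their order rests on the TMM factors, 0.981 and 1.06, and turns without them. Among the *Txnip*-/- libraries, replicate 1 had the lowest of these sums and the highest *Lcn2*. *S100a8*, named after its values were seen, had 0, 11 and 13 counts with *Txnip* deleted and 0, 7 and 0 counts in WT. *S100a9* and *Csf3r*, also named after their values were seen, had 0, 4 and 0 and 6, 1 and 1 counts with *Txnip* deleted. In WT they had 4, 0 and 0 and 1, 1 and 0 counts. *Cxcr2* had 7, 7 and 3 counts with *Txnip* deleted and 9, 2 and 4 counts in WT. Markers of cholangiocytes, an epithelium, summed to 3.10 to 6.81 CPM with *Txnip* deleted and to 2.24 to 7.83 CPM in WT, so the genotypes overlapped. The part of these neutrophil, hepatocyte and cholangiocyte markers in the *Lcn2* difference was not tested. Per 100 counts of the macrophage markers, *Lcn2* had 1.64 to 2.91 counts with *Txnip* deleted and 0.347 to 0.486 counts in WT. Those markers summed to a 2.36-fold lower level in *Txnip*-/- LSECs, so even a gene with equal levels has a higher ratio there. Nothing is read from this ratio.

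**Figure D3:**
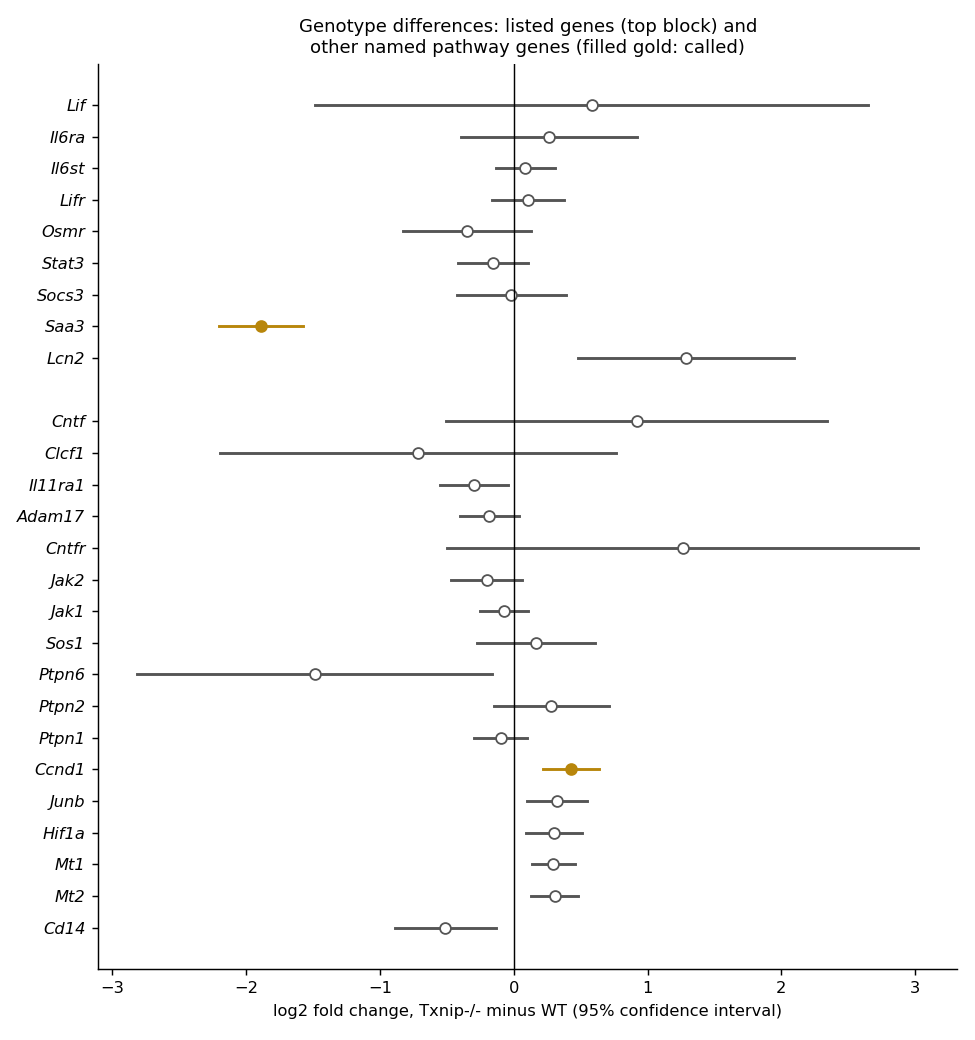
Log2 fold change of *Txnip*-/- against WT LSECs (horizontal axis) with its 95% confidence interval for the 9 listed genes above the filter (top) and for the other named genes of the pathway lists (bottom), filled gold where called. *Saa3* at -1.89 and *Ccnd1* at 0.43 are called. The intervals of *Il6st*, *Lifr*, *Stat3* and *Socs3* include 0, from -0.13 to 0.31 for *Il6st* and wider, from -0.43 to 0.39, for *Socs3*.

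Ordered by mean level over all 6 libraries, *Stat3* came first at 161 CPM, then *Il6st* at 99.5, *Saa3* at 60.9, *Lifr* at 50.2, *Socs3* at 22.0, *Osmr* at 14.5, *Il6ra* at 13.0, *Lcn2* at 5.30, *Lif* at 1.58 and *Il6* at 0.323 CPM. QuantSeq reads each transcript near its polyadenylated end, so a count does not scale with transcript length and no division by length was made, but priming can differ between genes. The library ranges of *Stat3* and *Il6st*, of *Lifr* and *Socs3* and of *Socs3* and *Osmr* did not overlap. The other neighbours in this order did overlap. The place of *Saa3* belongs to neither genotype, since its mean was 25.9 CPM with *Txnip* deleted, where every library lay below *Lifr*, and 96.0 CPM in WT, beside *Il6st* at 96.5 CPM. *Stat3* and the shared chain *Il6st* thus had higher levels than the IL-6-binding chain *Il6ra*, and both ligands had the lowest means.

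The wider pathway was described with 6 lists of 75 other genes, of which 46 passed the filter. *Ccnd1*, 1 of the 46, was called (2.17%, against 1.44% of all tested genes), and 9 of the 46 (19.6%) had an unadjusted p under 0.05, against 11.5% of all tested genes. The median log2 fold change was 0.0029. Among 10 other IL-6 family ligands only *Cntf* and *Clcf1* passed the filter, with log2 fold changes of 0.92 and -0.72 (adjusted p = 0.670 and 0.786, edgeR), and *Osm*, *Ctf1*, *Ctf2* and *Il31* were among those at 0 in every library. Over the alternative fits *Cntf* ranged from 0.11 without *Txnip*-/- replicate 1 to 2.73 with the term for WT replicates 1 and 2, and it was 0.49 without WT replicate 3. The last 500 bases of *Cntf* overlap an exon of *Zfp91* on the same strand. Of 6 other receptor chains and sheddases 5 passed the filter and 0 were called, with a median of 0.0070. *Il11ra1*, the IL-11-binding chain, had 58.1 ± 1.35 CPM with *Txnip* deleted and 71.3 ± 8.39 CPM in WT (SD, n = 3, log2 fold change -0.30, adjusted p = 0.332, edgeR). *Adam17*, the protease that sheds the IL-6 receptor, and *Cntfr* had log2 fold changes of -0.18 and 1.26 (adjusted p = 0.542 and 0.619, edgeR). In this list 1 gene had an unadjusted p under 0.05.

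The 8 transducers, Janus kinases and adaptors were all above the filter, with 0 called, 0 at an unadjusted p under 0.05 and a median of -0.087. *Jak1*, the main kinase of gp130, had 704 ± 21.7 CPM with *Txnip* deleted and 739 ± 81.3 CPM in WT (SD, n = 3, log2 fold change -0.071, adjusted p = 0.840, edgeR). *Jak2* and *Sos1* had log2 fold changes of -0.20 and 0.17 (adjusted p = 0.580 and 0.849, edgeR). Of 8 other negative regulators 7 passed the filter, 0 were called and 1 had an unadjusted p under 0.05, with a median of -0.13. That gene was *Ptpn6*, the phosphatase SHP-1 of blood cells, with 3.01, 2.24 and 0.214 CPM with *Txnip* deleted and 5.74, 5.62 and 4.02 CPM in WT. All *Txnip*-/- libraries lay below the WT libraries, as they did for the macrophage markers, but the difference did not pass (log2 fold change -1.49, adjusted p = 0.356, edgeR). *Ptpn1* and *Ptpn2*, broadly expressed phosphatases that act on JAK-STAT signalling, had log2 fold changes of -0.097 and 0.28 (adjusted p = 0.782 and 0.665, edgeR). *Ptpn2* was another gene that turned on WT replicate 3, at a log2 fold change of 0.046 without that library (adjusted p = 0.944, edgeR). With the term for WT replicates 1 and 2, where WT replicate 3 is the only baseline library and is assumed to vary like the others, it was 0.92 (adjusted p = 0.0431, edgeR).

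All 15 known STAT3 target genes passed the filter. *Ccnd1* rose, the other 14 were not called, and the median log2 fold change was 0.14. An unadjusted p under 0.05 was seen for 4 genes, all higher, against 11.5% of all tested genes in either direction. Fitted levels were higher with *Txnip* deleted for 11 of the 15 and lower for 4. *Ccnd1*, which encodes the G1 cyclin D1, had 129, 131 and 132 CPM with *Txnip* deleted and 97.2, 106 and 89.4 CPM in WT. The *Txnip*-/- libraries were close together and above every WT library (log2 fold change 0.43, SE 0.10, adjusted p = 0.0395, edgeR). The call held in 8 of 16 alternative fits and was lost with each library left out in turn, at an adjusted p of 0.0770 to 0.203 for 5 libraries. With WT replicate 3 left out it was lost by the fold threshold alone, at a log2 fold change of 0.37 (adjusted p = 0.0484, edgeR). The last 500 bases of *Ccnd1* overlap an exon of *LTO1* on the opposite strand, and those of *Junb*, *Il11ra1*, *Adam17*, *Jak1*, *Mt2*, *Stab1* and *Csf1r* also overlap a gene on the opposite strand. *Junb* and *Hif1a* had log2 fold changes of 0.33 and 0.30 (adjusted p = 0.187 and 0.189, edgeR), with no overlap between the genotypes. *Pim1*, named after its values were seen, had 426, 451 and 497 CPM with *Txnip* deleted and 608, 600 and 397 CPM in WT. Its log2 fold change was -0.22 (adjusted p = 0.536, edgeR). *Pim1* turned on WT replicate 3, and without that library it was called as lower. STAT3 is one of many factors that act on these targets.

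Of 28 other acute-phase genes 19 were below the filter. These 19, which include the hepatocyte products *Saa1*, *Saa2*, *Crp*, *Hp* and *Orm1*, had at most 24 counts in any library. The other 9 had a median log2 fold change of 0.053, with 0 called and 3 at an unadjusted p under 0.05 (11.5% of all tested genes). The metallothionein genes *Mt1* and *Mt2*, metal-binding proteins induced by stress and cytokines, were the abundant ones. *Mt1* had 881 ± 53.4 CPM with *Txnip* deleted and 718 ± 7.07 CPM in WT (SD, n = 3, log2 fold change 0.30, adjusted p = 0.0637, edgeR), and *Mt2* had a log2 fold change of 0.30 (adjusted p = 0.0852, edgeR). *Cd14*, the LPS co-receptor of myeloid and sinusoidal cells, had 19.0, 28.8 and 28.8 CPM with *Txnip* deleted and 35.3, 40.6 and 33.4 CPM in WT. It lay lower in each *Txnip*-/- library without passing (log2 fold change -0.51, adjusted p = 0.235, edgeR).

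**Figure D4:**
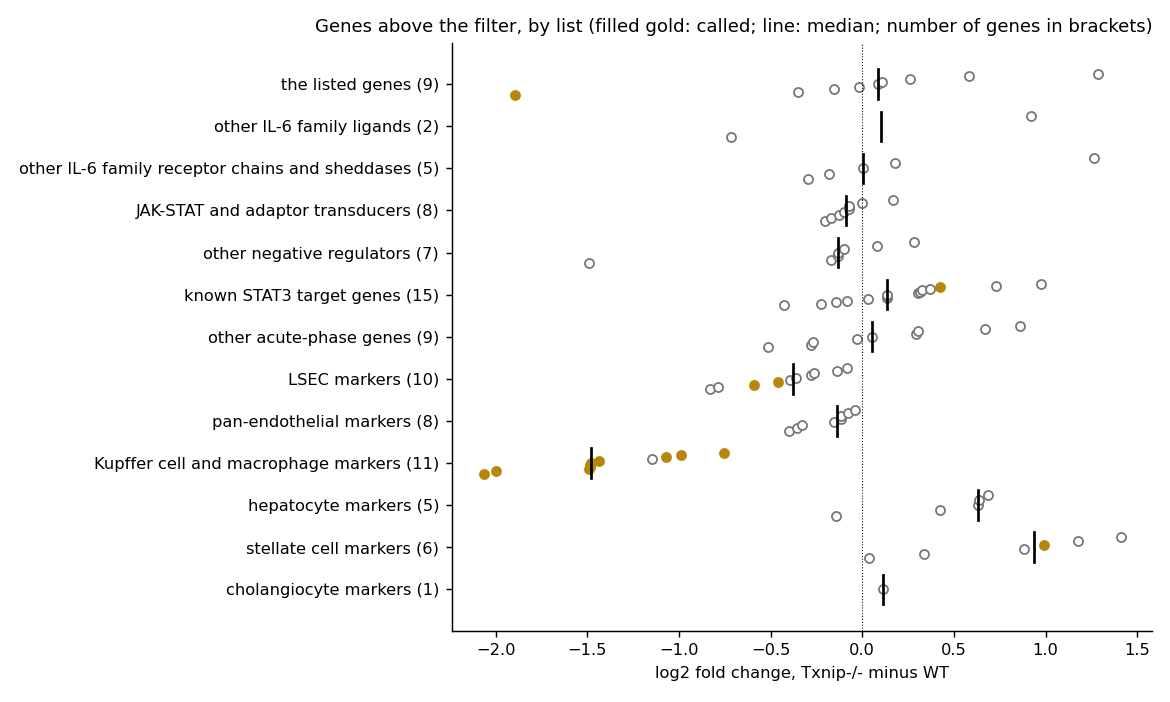
Log2 fold change (horizontal axis) of every gene above the filter in the listed genes, the 6 pathway lists and the marker lists (rows), 1 point per gene, filled gold where called, with the median as a line. The pathway lists centre near 0, while 10 of 11 macrophage markers are called and all 11 lie to the left.

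The other marker lists describe RNA of further cell types in the libraries and not numbers of cells. All 8 pan-endothelial markers passed the filter, with 0 called and a median log2 fold change of -0.13. Each of the 8 had a lower fitted level with *Txnip* deleted, 3 of them at an unadjusted p under 0.05 and 3 without overlap. Over all tested genes, in either direction, 11.5% had an unadjusted p under 0.05 and 17.4% did not overlap. *Cdh5* led them at 1069 ± 87.7 CPM with *Txnip* deleted and 1101 ± 103 CPM in WT (SD, n = 3). Its log2 fold change of -0.042 was the smallest in size of the 8. All 10 LSEC markers had lower fitted levels with *Txnip* deleted, 8 of them at an unadjusted p under 0.05, with a median log2 fold change of -0.38. Of these *Stab1* and *Maf* fell (log2 fold changes -0.46 and -0.59, adjusted p = 0.00984 and 0.00129, edgeR), and the most abundant, *Lyve1*, did not pass (-0.79, adjusted p = 0.0880). *Lyve1* turned on WT replicate 3, and it was -1.10 without that library (adjusted p = 5.16e-08, edgeR) and 0.16 with the term for WT replicates 1 and 2 (adjusted p = 0.527). *Stab2*, named after its values were seen, missed by the fold threshold alone (-0.36, adjusted p = 0.0448, edgeR). The call of *Stab1* was lost without *Txnip*-/- replicate 2 or 3 (adjusted p = 0.0839 and 0.0739, edgeR) and with the replicate block (adjusted p = 0.0507). Of 8 stellate cell markers 6 passed the filter, with a median log2 fold change of 0.94, and *Dcn* rose (log2 fold change 0.99, adjusted p = 0.00497, edgeR). Hepatocyte markers summed to 36.2 to 51.3 CPM with *Txnip* deleted and to 35.3 to 38.4 CPM in WT with 0 of 5 called, and *Alb* led them with 20.3 and 22.4 CPM on average. *Alb* was the only one of the 5 with a lower fitted level, and the median log2 fold change was 0.63. *Apoa1*, named after its values were seen, was higher in every *Txnip*-/- library, at 9.16 to 15.6 CPM against 8.37 to 8.86 CPM in WT (unadjusted p = 0.0285, adjusted p = 0.346, edgeR). The most abundant neutrophil, lymphocyte and cholangiocyte markers over all 6 libraries, *Cxcr2*, *Cd79a* and *Sox9*, averaged at most 1.13 CPM in either genotype. With *Txnip* deleted, *S100a8* and *Krt7*, named after their values were seen, averaged more than *Cxcr2* and *Sox9*. Their means were 0.837 and 1.24 CPM there and 0.222 and 0.371 CPM in WT.

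**Figure D5:**
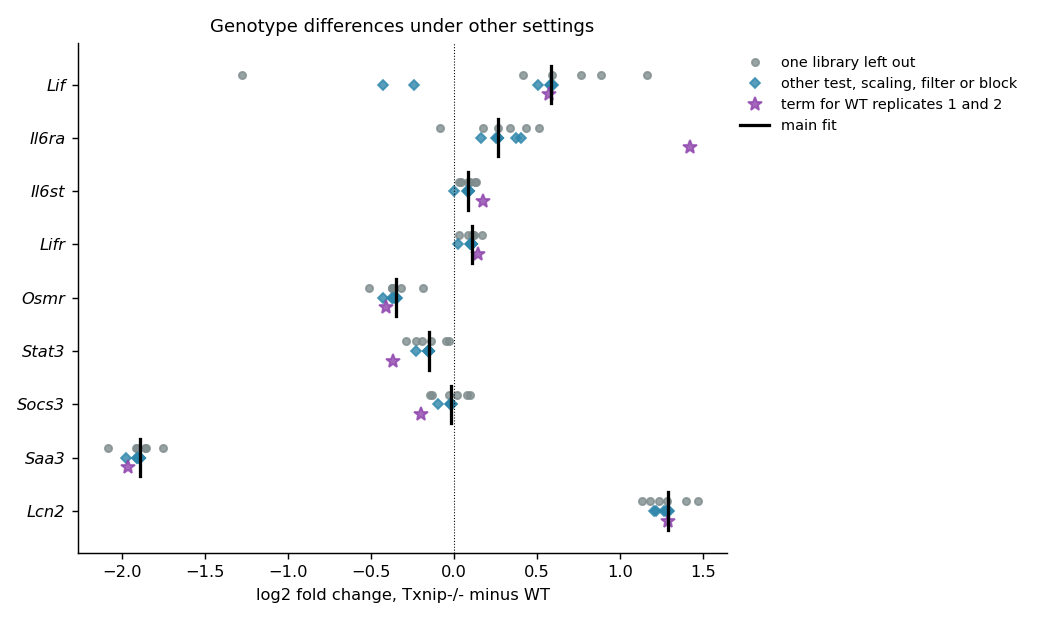
Log2 fold change of *Txnip*-/- against WT LSECs (horizontal axis) for the 9 listed genes above the filter in the edgeR fit reported (black line), with 1 library left out (grey), with another test, scaling, filter or block (blue) and with a term for WT replicates 1 and 2 (purple star). *Saa3* stays between -2.09 and -1.75 and *Lcn2* between 1.13 and 1.47, whereas *Lif* spans -1.27 to 1.16 and *Il6ra* -0.085 to 1.42.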

How the data were processed

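QuantSeq 3′ mRNA-Seq libraries of LSECs, 3 per genotype, were sequenced as single-end 75 reads. The authors used Bowtie2 for alignment and Bedtools for counting, kept reads with several alignments, and deposited whole-number counts without normalization. The build mm10 comes from the submitters' processing notes. Versions, annotation and use of strand are not given in the sources used here, and no molecular identifiers are named, so counting intervals and the floor hold no other error.

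The counts (23282 rows, 44 of which repeat a symbol and were kept apart) were analysed in R 4.3.3 with edgeR 4.0.16 (filterByExpr, 11583 genes, TMM normalization, glmQLFit and glmQLFTest, genotype as the single term, Benjamini-Hochberg adjustment over all tested genes). A gene was called where its fold change exceeded 1.3 at an adjusted p below 0.05. Each SE was derived from the F statistic. The fit was tested on simulated data. Alternatives were DESeq2 1.42.0, limma 3.58.1 (trend, prior count 2), other normalization, filters and thresholds, *Rn45s* left out, the replicate block, a term for WT replicates 1 and 2, and each library left out.

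The listed genes, pathway lists, marker lists and alternatives were chosen with earlier results of these data known. The genes named are all 10, in each pathway list the called genes or else the smallest p up to 3 genes, in each marker list the called and the most abundant gene, and the 3 genes most alike in pattern. Other genes are named as undetected examples, as overlapping neighbours or where said to be named after their values were seen. Gene positions were read from GENCODE M21 (GRCm38). Promoters came from RefSeq (GRCm38.p6), matched by symbol for all 10 genes.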

Additional observations from a re-analysis of the deposited data

How the results depend on the processing

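The genotype call of *Saa3* held under every alternative run. The number of listed genes called was 1 in the edgeR fit and 2 with a term for WT replicates 1 and 2 (*Il6ra* and *Saa3*) or with an unadjusted p (*Saa3* and *Lcn2*). The number of pathway genes called was 1 in that fit, 0 with no normalization factors, with the replicate block or with a log2 fold change above 1.3, 2 with the term for WT replicates 1 and 2, 4 with an unadjusted p, and 0 to 1 with each library left out (*Pim1* without WT replicate 3, otherwise 0). Over all genes, 167 were called, 301 without WT replicate 3 or with no filter on low counts, 89 to 112 with another library left out, 108 with the replicate block, 57 with a log2 fold change above 1.3 and 867 with an unadjusted p. Of the 167 calls 59 were higher, with no normalization factors 35 of 180, and with the term 96 of 194.

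Replicate numbers did not pair the libraries (correlations of deviations -0.030, 0.017 and -0.047). With the replicate block *Lif* turned to -0.24, *Saa3* was the only listed gene called, and *Ccnd1* (log2 fold change 0.43, adjusted p = 0.105, edgeR) lost its call. *Lif* was -0.43 with limma-trend. With the term for WT replicates 1 and 2 *Lyve1* was 0.16 and *Sox9* -0.58. With each library left out, the sign changed for *Lif* (-1.27 to 1.16), *Il6ra* (-0.085 to 0.51), *Socs3* (-0.14 to 0.095), *Jak1* (-0.13 to 0.022), *Sos1* (-0.034 to 0.40), *Cdh5* (-0.11 to 0.031), *Alb* (-0.43 to 0.11) and *Sox9* (-0.13 to 0.63). The number of listed genes without overlap was 3 to 4 with each library left out. With fewer libraries in a group, genotypes separate more easily. The share of all tested genes was not computed for these fits, so nothing is read from that count. The causes of these shifts between fits were not tested.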

Other observations

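Over the 6 libraries, the genes whose log2 CPM correlated most with *Saa3* among all tested genes were *Nlrc4*, *Ms4a6b* and *Csf1r*, with Pearson r of 0.996, 0.995 and 0.995. Those for *Lcn2* were *Mrto4*, *6030458C11Rik* and *Cyth2*, with r of 0.997, 0.996 and 0.996. For *Socs3* they were *Ttc8*, *Cul9* and *Smim4*, with r of 0.997, 0.993 and 0.985, and for *Il6ra* they were *Lins*, *Layn* and *Srr*, with r of 0.997, 0.996 and 0.991. Each r is a description over 6 points that share libraries and genotype groups, picked as the highest over all tested genes.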
